A study of Apis mellifera with 6 samples.

Results

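Of the 9362 genes listed for the antennae of worker bees, 7 carry a symbol of the cytochrome P450 or the glutathione transferase (GST) family. They were found by symbol alone, as rows whose ID starts with CYP and a digit or with GST, without *Gstcd*, and the rule uses no measured value. There are 4 P450 genes, *CYP6AQ1*, *Cyp6as5*, *Cyp4g11* and *Cyp314a1*, and 3 GST genes, *GstD1*, *GstS1* and *GstS4*. The antennal RNA came from 6 libraries of adult workers, with 3 libraries for *dsx* stop/stop and 3 for wt, and 5 bees were pooled for each library. In the *dsx* stop/stop bees a stop mutation sits in each copy of *doublesex* (*dsx*), the transcription factor gene at the end of the sex-determination cascade, and the mutations were induced separately in every bee with CRISPR-Cas9. The labels name this treatment for the mutants only, so genotype and treatment cannot be told apart, and no age is given for either group. The comparison asks whether *dsx* affects transcription in the antennae.

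P450s are heme enzymes that insert 1 oxygen atom into their substrate with electrons from a reductase partner. In insects they oxidize plant compounds and insecticides, make and break down the steroid hormone ecdysone and juvenile hormone, and carry out the last step of hydrocarbon synthesis for the cuticle. GSTs join the tripeptide glutathione to reactive molecules, often after a P450 has acted, which makes them easier to remove. In antennae, both families are known for clearing odorants around the olfactory neurons and for protecting sensory tissue from foreign compounds.

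All values are those of the deposited table, in which a gene has a single line that summarizes both groups. The base mean is the authors' mean over the 6 libraries of the normalized counts. The methods name TPM, a scale that divides reads by transcript length, for this normalization. The values themselves behave as counts divided by a size factor for depth, since 93 genes, whose spans ran from 0.215 to 62.2 kb, shared only 6 of the smallest base means. The base mean is therefore read here as reads per gene and not per length. The log2 fold change is taken as *dsx* stop/stop against wt, so a value above 0 stands for more reads in *dsx* stop/stop, and its standard error (SE) is on the log2 scale. Single libraries have no values in the columns used, so the spread between pools, the number of pools that show a direction and the overlap of the groups cannot be given. RNA was taken from whole antennae, in which fewer cells of a type and less RNA per cell cannot be told apart.

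Size factors were derived from these smallest base means, under the assumption that each is 1 read in 1 library. The 6 size factors ran from 0.202 to 2.36, an 11.7-fold range with a geometric mean of 1. This is wider than the range of mapped reads per library that the methods state, and size factors are not totals of reads. The targeted gene, listed as *Dsx*, had a log2 fold change of -0.39 (SE 0.129) at a base mean of 1278, the lowest of all listed genes. Of 21 marker genes chosen for antennal and other cell types, 5 were listed. The IDs of the others lie past the point where the alphabetical list of genes ends, capital letters first. Their absence therefore says nothing about their expression. The chemosensory protein genes *CSP1* and *CSP3*, which are abundant in bee antennae, had base means of 58480 and 48898. The fat body genes *Hex70a*, *Hex110* and *HEX70b* had base means of 32.6, 27.3 and 19.2, and their log2 fold changes were 0.35 (SE 0.113), 0.034 (SE 0.113) and -0.039 (SE 0.115). None of them passed the test across all listed genes. The Wald ratios (log2 fold change over SE) were also divided by their robust SD, for the 7862 listed genes whose base mean reached 10. *Hex70a* and *Dsx* then passed, with adjusted p of 0.00149 and 0.00175 by the Benjamini-Hochberg method over these genes in place of 1.00. The part of *Hex70a* and its source tissue in the values of the enzymes was not tested.

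The antennal transcripts of the 7 enzymes were very unequal in abundance, and CYP3-clan P450s stood at the top. *CYP6AQ1* and *Cyp6as5* belong to the CYP6 family of this clan, which in insects is best known for oxidizing plant toxins and insecticides. *CYP6AQ1* lies on chromosome LG12 from 11127257 to 11130777 of assembly Amel_HAv3.1 and has 4 annotated transcripts. Its base mean was 227119 normalized counts, the second highest of the 9362 listed genes. This gene alone held 2.30% of the summed base mean of all listed genes and 82.7% of that of the 7 enzymes. Genes with IDs past the end of the alphabetical list were not analysed here. Ranks and shares therefore hold among the listed genes, not among all antennal transcripts. No annotated gene overlaps it. The nearest listed protein-coding genes on either side, LOC102654959 and LOC410379, had base means of 213 and 594, and the second of them starts 539 bp past the end of *CYP6AQ1*.

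*Cyp6as5* lies on LG13 from 10715717 to 10720066 and had a base mean of 24796, the 36th highest. Per kb of gene span, introns included, *CYP6AQ1* had a base mean of 64504 and *Cyp6as5* one of 5700, which is 11.3 times less. Lengths of the transcripts were not used here, and the gene span is the only length behind such comparisons.

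**Figure D1:**
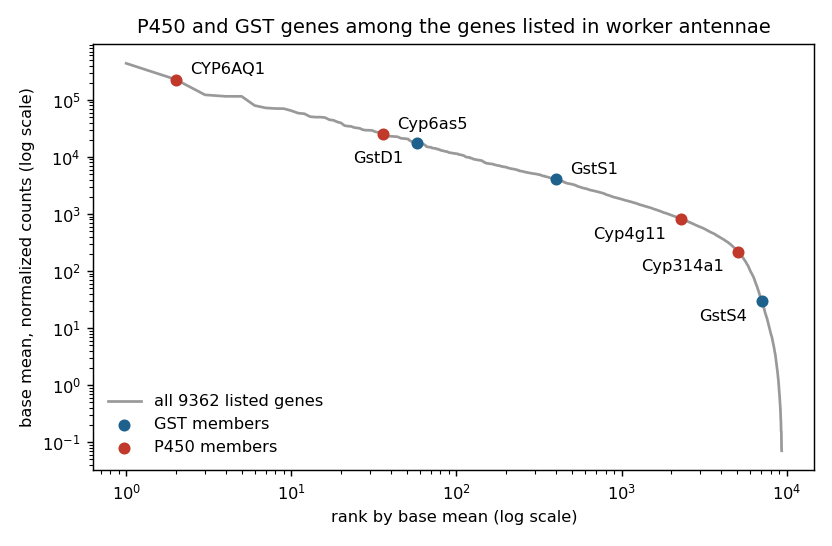
Base mean in normalized counts of every listed gene (grey line) against its rank, both on log scales, with the 4 P450 genes in red and the 3 GST genes in blue. *CYP6AQ1* sits at rank 2 with 227119 and *GstS4* at rank 7055 with 30.0, and 3 of the 7 genes are among the first 100.

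Among the GST genes, the delta-class gene *GstD1* had the most reads. In *Drosophila*, the delta-class enzyme of the same name acts on the insecticide DDT. *GstD1* lies on LG15 from 9011536 to 9016677, and its base mean was 17617, the 58th highest. The sigma-class gene *GstS1*, on LG4 from 1918073 to 1921443, had a base mean of 4069 at rank 399. In *Drosophila*, the sigma-class GST conjugates products of lipid oxidation. Per kb of gene span, *GstD1* was at 3426 and *GstS1* at 1207, a ratio of 2.84. The other sigma-class gene, *GstS4* on LG4 from 5016633 to 5017794, had a base mean of only 30.0 at rank 7055, and 24.6% of the listed genes had fewer reads. The transferase transcripts detected in the antennae therefore came mostly from *GstD1* and *GstS1*, as far as the genes with a GST symbol show.

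The P450s with a defined endogenous substrate had far fewer reads than those of the CYP6 family. *Cyp4g11* belongs to the CYP4G subfamily, whose *Drosophila* member Cyp4g1 removes the terminal carbon of long aldehydes to yield the hydrocarbons of the cuticle. It lies on LG16 from 2830988 to 2835517 and had a base mean of 825 at rank 2276, above 75.7% of the listed genes. *Cyp314a1*, also named *shade*, hydroxylates ecdysone to the active form of the hormone. It lies on LG5 from 13661266 to 13666787, has 11 annotated transcripts and had a base mean of 219 at rank 5076, below the median of all listed genes of 275. Their base means per kb of gene span were 182 and 39.7. The order of the 7 genes was the same by base mean and by base mean per kb of gene span. Whether neighbours in this order differ beyond the spread between pools cannot be given, because the table holds 1 mean per gene.

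None of the 7 enzyme genes passed the test of *dsx* stop/stop against wt. The test used the Wald ratio, which is the log2 fold change divided by its SE, after Benjamini-Hochberg adjustment over all 9362 genes. The number called was 0 of 7, each with an adjusted p of 1.00, against 2 of the 9362 listed genes (0.0214%). At an unadjusted two-sided p under 0.05 it was also 0 of 7. No member was as far as 2 SE from 0, where 57 listed genes (0.609%) were found. The members' count of 0 is near the share over all listed genes. The log2 fold changes ran from -0.18 to 0.25, with 4 genes above 0 and 3 below, and their median was 0.038 against 0.0031 over all listed genes. The 95% intervals of the 7 genes, built from the listed SEs, lay between -0.47 and 0.54. As a fold this is between 0.721 and 1.46. The listed values may be drawn toward 0, as described below, so the ratios of the counts may lie outside these bounds.

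*Cyp4g11* had the highest value of the 7. Its log2 fold change was 0.25 (SE 0.147, 95% interval from -0.035 to 0.54), or 1.19 as a fold, at 1.72 times its SE. A value at least this far from 0 in units of SE was found in 1.23% of the listed genes, and *Cyp4g11* ranked 115th among them. The interval held 0, and the gene did not pass the test. The listed genes on either side, LOC100577996 and LOC409487, had log2 fold changes of 0.015 (SE 0.114) and 0.097 (SE 0.133), and no annotated gene overlaps *Cyp4g11*. Of the enzymes that make the precursors of hydrocarbons, the symbols find *FAR1*, a fatty acyl-CoA reductase. It had a log2 fold change of the other sign, -0.16 (SE 0.149), at a base mean of 194, and did not pass the test either.

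*Cyp6as5* had the lowest value of the 7. Its log2 fold change was -0.18 (SE 0.146, 95% interval from -0.47 to 0.10), or 0.880 as a fold, at -1.26 times its SE. It was the 120th lowest of the listed genes, and it did not pass the test. The more abundant *CYP6AQ1* had a log2 fold change of -0.038 (SE 0.140, 95% interval from -0.31 to 0.24), which is 0.974 as a fold.

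**Figure D2:**
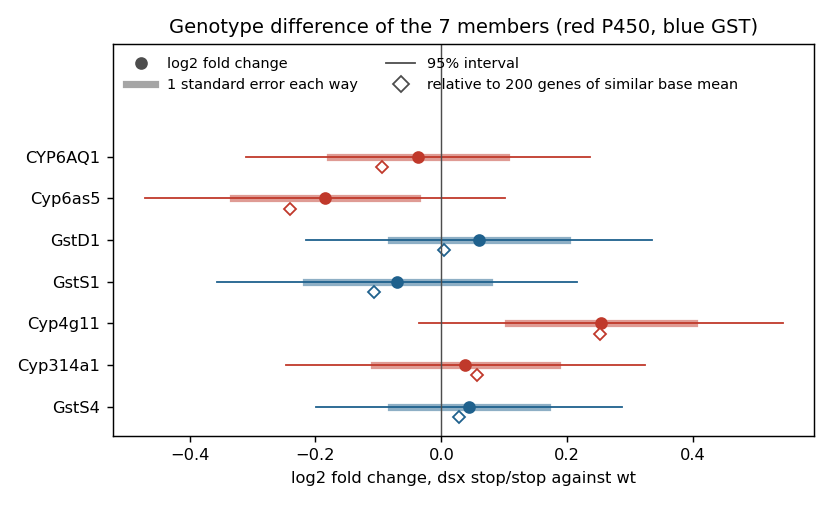
Log2 fold change of *dsx* stop/stop against wt for the 7 genes, in order of base mean, with 1 SE (thick bars) and the 95% interval (thin lines). Open diamonds give the value with the median of the 200 genes nearest in base mean subtracted. Every 95% interval crosses 0, from *Cyp6as5* at -0.18 to *Cyp4g11* at 0.25.

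The remaining enzymes were within 1 SE of 0. *GstD1* was at 0.060 (SE 0.140), *GstS1* at -0.070 (SE 0.146) and *GstS4* at 0.044 (SE 0.124). The ecdysone hydroxylase *Cyp314a1* was at 0.038 (SE 0.145), and the ecdysone receptor gene *Ecr*, which binds its product, was at 0.028 (SE 0.132) with a base mean of 636. Together with *CYP6AQ1*, 5 of the 7 enzymes were within 1 SE of 0, as were 88.1% of all listed genes. The juvenile hormone esterase gene *Jhe*, a hydrolase that breaks down juvenile hormone, had a base mean of 8685 and a log2 fold change of -0.071 (SE 0.149). *Ecr* and *Jhe* were chosen after their values were seen.

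Of the 4 enzymes whose base mean reached 3000, 1 had a log2 fold change above 0. In all, 552 listed genes were this abundant, and 70.5% of them were above 0, with a median of 0.050. Among the enzymes, *CYP6AQ1*, *Cyp6as5* and *GstS1* were below 0 and *GstD1* was above. All of these but *Cyp6as5*, at -1.26 times its SE, were within 1 SE of 0, so their signs are uncertain. The limit of 3000 was not among the planned settings. With the median of the 200 listed genes nearest in base mean subtracted, *CYP6AQ1* was at -0.094, *Cyp6as5* at -0.24, *GstS1* at -0.11 and *GstD1* at 0.0040. *Cyp4g11* moved little, to 0.25, *Cyp314a1* was at 0.057 and *GstS4* at 0.028. None of the 7 changed sign, and these differences from similar genes were not tested.

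The SEs of the enzymes hardly depended on how many reads a gene had. For the 6 genes other than *GstS4*, the SE was between 0.140 and 0.147 although their base means spanned 1037-fold, and the largest SE of any listed gene was 0.149. A gene's base mean and the size factors give the SE that would come from read counting alone, had the pools not differed, as a lower limit. It was 0.0021 for *CYP6AQ1* and 0.068 for *Cyp314a1*, and the listed SEs of the 6 genes were 2.14 to 66.2 times this limit. For *GstS4* the listed SE of 0.124 was below the limit of 0.184, as it was for 29.4% of the listed genes. A plain ratio of counts has no SE under this limit, so by this estimate the values of the genes below it are not plain ratios. Log2 fold changes drawn toward 0 can have such an SE. The listed fold changes may therefore understate the ratios of the counts, and intervals built from the listed SEs may not hold these ratios.

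**Figure D3:**
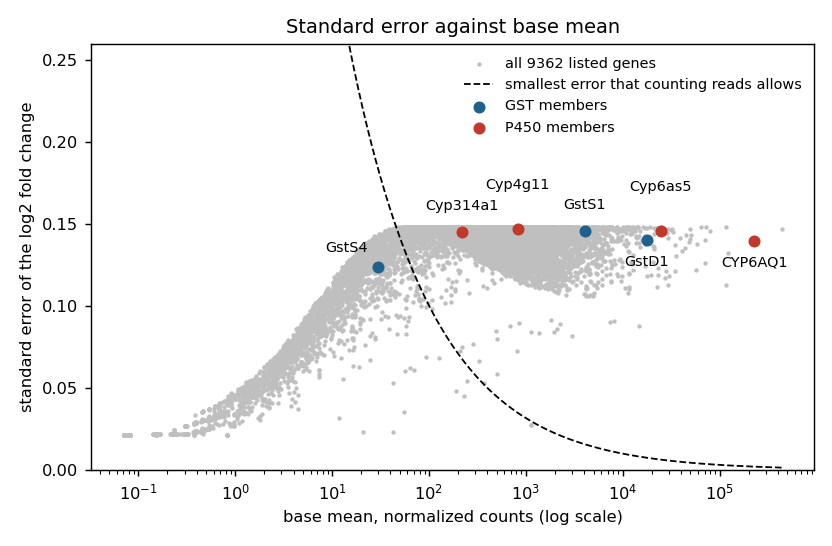
SE of the log2 fold change against base mean (log scale) for all listed genes (grey), the P450 genes (red) and the GST genes (blue), with the smallest SE that counting reads allows (dashed line). Of the 7 enzymes, *GstS4* at 0.124 is the one below the dashed line, and the others lie between 0.140 and 0.147.

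Beside the 7 genes, the annotation of Amel_HAv3.1 gives a P450 name as a synonym to 3 genes listed only by a locus number, and 2 of them were listed. *CYP15A1* (LOC551179), on LG7 from 13421090 to 13423725, makes the epoxide of juvenile hormone in insects. Its base mean was 5.53 and its log2 fold change -0.022 (SE 0.0850), with an SE at 0.199 times the counting limit. The counting limit alone was 0.427 on the log2 scale for this gene. *CYP6AS13* (LOC551028), a member of the same subfamily as *Cyp6as5*, had a base mean of 5521 at rank 255 and a log2 fold change of 0.015 (SE 0.143). The third one, *CYP6AS11* (LOC724946), has an ID past the end of the alphabetical list and was not analysed here. The esterase gene *Est-6* had a base mean of 2.52 and a log2 fold change of 0.013 (SE 0.0667). Of the 4 further genes of these pathways found by symbol or synonym, counting *FAR1*, 0 passed the test and 0 were as far as 2 SE from 0. *Gstcd*, which the rule left out, had a base mean of 295 and a log2 fold change of 0.031 (SE 0.148). The gene *Jtb* was listed with the same values, so they cannot be assigned to *Gstcd* alone. Gene descriptions were not used here, so P450 and GST genes listed by locus number without a synonym were not counted.

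*Cyp6as5* and *CYP6AS13* lie near each other on LG13. The stretch from the start of *Cyp6as5* to the end of *CYP6AS13*, 44.2 kb long, holds 7 annotated protein-coding genes, of which 5 were listed. The others, LOC727598 and LOC726690, have IDs past the end of the alphabetical list, so their absence says nothing about their reads. Among the listed genes of the stretch, reads were very uneven. LOC412209, the gene that follows *Cyp6as5*, had a base mean of 20884 at rank 49, whereas LOC413908 next to it had one of 5.03, and LOC112939925 one of 1537. The log2 fold changes of LOC412209, LOC413908 and LOC112939925 were -0.075 (SE 0.148), -0.023 (SE 0.0643) and -0.068 (SE 0.142). With *Cyp6as5* at -0.18 and *CYP6AS13* at 0.015, 4 of the 5 genes were below 0, and none passed the test. Whether the genes named only by locus number encode P450s was not determined here. Genes of one subfamily can share reads, and how the counting program divided such reads among them was not tested, so the split of reads between *Cyp6as5* and its relatives is uncertain.

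**Figure D4:**
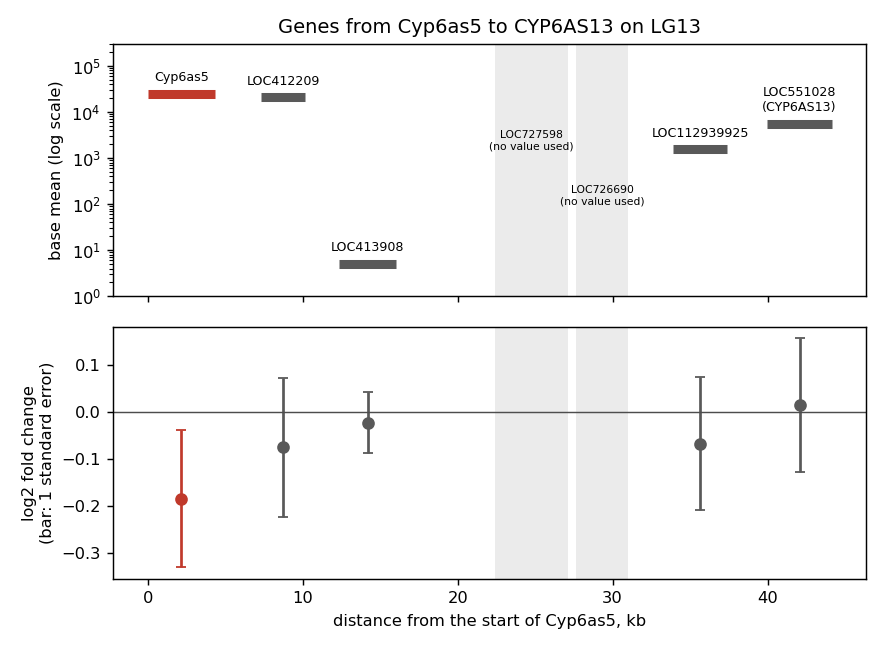
Base mean on a log scale (top) and log2 fold change with 1 SE each way (bottom) of the listed genes from *Cyp6as5* to *CYP6AS13*, against the distance in kb from the start of *Cyp6as5*. The bars at the top span each gene, and the shaded spans are 2 genes whose values were not used. *Cyp6as5* (red) and LOC412209 stand at 24796 and 20884, LOC413908 at 5.03.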

How the data were processed

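Antennal polyA RNA of 3 pools of 5 *dsx* stop/stop and 3 pools of 5 wt worker bees was sequenced by the authors with single-end reads of 150 bp. Per their methods, the authors assigned the reads to the Amel_HAv3.1 transcriptome with kallisto, normalized the estimated counts, for which they name the TPM method, and compared the genotypes with DESeq2; versions and settings of these programs are not given in the sources used here. The values used from the deposited table were the mean normalized count over all libraries (base mean), the log2 fold change and its standard error. Its remaining columns hold the Wald statistic, p-values, adjusted p-values and -log10 values of the authors, and were not used. Decimal commas were read as points. The fold change was read as *dsx* stop/stop against wt, the order in which the paper names the comparison. The header of its column gives no direction. The symbols, synonyms and positions come from RefSeq.

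Computed here were ranks, Wald ratios with two-sided normal p-values, Benjamini-Hochberg adjustment over 9362 genes (limit 0.05), 95% intervals (log2 fold change with the normal quantile times its standard error), size factors from base means below 1 that 3 or more genes had in common, and log2 fold changes relative to the 200 genes nearest in base mean. The last gene of the table, LOC724262, has a fold change and standard error but no p-value and was kept. The steps were tested on simulated data. For the test of fold changes, the listed standard errors served as the true spread, and the planted changes were larger than any listed value. The simulation therefore cannot show how this test behaves on the listed values. The listed genes end, in alphabetical order, with LOC724262, apart from LOC724488 and LOC724274, and genes with other later IDs were not analysed here. P-values rest on the listed fold changes and standard errors of the authors' model, which may be drawn toward 0. They are therefore no direct measure of the spread between pools. Of all listed genes, 88.1% were within 1 standard error of 0, more than the normal distribution behind the p-values gives. The members, gene lists and tests were chosen with earlier results of these data known. Named are all members, the genes that the symbols or synonyms of the chosen pathway lists find, the neighbouring genes and the listed markers. The alternatives were other limits, adjustments, centring and length scales. The calculations used Python 3.11.15, numpy 2.4.6, pandas 2.3.3, scipy 1.17.1 and matplotlib 3.10.9.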

Additional observations from a re-analysis of the deposited data

How the results depend on the processing

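The number of enzyme genes called was 0 of 7 under each alternative. It was 0 with an added limit of 1.5 on the absolute log2 fold change and at 2 standard errors without adjustment. It was 0 with the adjustment over genes whose base mean reached 100 or 10. It was also 0 with the Wald ratios divided by their robust SD of 0.649, and with *CYP15A1* and *CYP6AS13* added. The limit of 1.5 could call no gene, since the listed log2 fold changes ran from -0.39 to 0.72. No member had an unadjusted p under 0.05 by its Wald ratio, so no adjustment of these p-values could call one. The limit and the filters on base mean therefore do not test the count of 0. The corresponding counts of listed genes, before the 2 genes were added, were 0, 57, 2, 2 and 16 in place of 2. The robust SD and its adjustment used the 7862 genes whose base mean reached 10, so the 16 are among these. With the robust SD, the lowest adjusted p of the 7 was 0.552, for *Cyp4g11*. The median log2 fold change of the P450 genes was 0.00017, and it was -0.018 after centring on the 200 genes nearest in base mean and -0.0035 with *CYP15A1* and *CYP6AS13* added, so its sign depends on these choices. That of the GST genes was 0.044, and 0.0040 after this centring. No member lies under a base mean of 10, so the filter at 10 left both medians as they were. The length scale, the genes added by synonym and the counts over all listed genes were alternatives chosen after seeing the data. Adding P450 and GST genes by their description, which had been planned, was not run, since descriptions were not used here. No paired analysis was possible because no column used here holds a single library, and for the same reason no library was left out and no other normalization or count test was run. The base mean per kb of coding sequence was not run, since coding lengths were not used here. Depth limits the precision for *GstS4* and *CYP15A1*, whose counting limits were 0.184 and 0.427.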
